A study of Mus musculus with 48 samples.

Results

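Transcripts of 37 lysosomal genes were followed in the whole tibiae of young and aged male C57Bl6J mice that were fed ad libitum (AL) or held under caloric restriction (CR). The genes were chosen by name: 12 for proteins of the lysosomal membrane, 6 for subunits of the proton pump, and 19 for proteins of the lumen, which are hydrolases and their soluble partners. All 37 were among the 29801 genes of the deposited table and among the 13590 genes tested. Ctsl, which codes for the cysteine protease cathepsin L, rose with age over both diets, a call near the threshold that held in 6 of 17 other settings of the fit, and no other member passed the test in any comparison. Of the 37 members, 21 had their highest value in an aged CR mouse, where 19.3% of all genes tested had theirs, and 0 had their lowest value there, against 24.2% of all genes tested. The members with the smallest p for diet were Cd68, Ctsd and Ctsb, each with a higher mean in the CR group at both ages. The median log2 fold change of CR against AL over both ages was -0.03 for the membrane genes, 0.08 for the proton pump genes and 0.11 for the lumenal genes.

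Lysosomes are membrane-bound compartments in which acid hydrolases degrade proteins, glycans, lipids and nucleic acids delivered by endocytosis, phagocytosis and autophagy. A proton pump, the vacuolar ATPase with its membrane sector V0 and its cytosolic sector V1, acidifies the lumen, and heavily glycosylated membrane proteins line the boundary. In bone, osteoclasts place the same pump and the chloride transporter ClC-7 in their plasma membrane to dissolve mineral, and marrow macrophages are rich in lysosomes. Many lysosomal genes carry the E-box CACGTG near their start, the core of the element bound by the transcription factor TFEB and its relatives TFE3 and MITF.

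The 4 groups held 3 mice each and shared strain, sex and single caging. Per the labels, young mice were 10 weeks old and aged mice between 15 and 18 months, which by the methods of the study were ages at the start of the diet and not at the collection of bone, and AL mice had free access to food. CR lowered the food by 10% during week 1, then 20%, and finally 40% for the remaining time, within a diet period of 8 weeks. Per the methods, a formula richer in micronutrients replaced the earlier diet when CR began. The methods name no separate formula for AL mice, and the part of the formula in the results was not tested. The methods also describe an osteotomy of the right tibia, under analgesic and antibiotic drugs, 3 weeks before the end of the diet period. Their text does not say whether the sequenced bones came from operated mice, and the part of the surgery was not tested. The mice are named here by their numbers: young AL 9, 10 and 11, young CR 1, 2 and 3, aged AL 13, 14 and 15, aged CR 5, 6 and 7. RNA came from frozen powder of the whole bone with its marrow after muscle had been removed, so that fewer cells of a type and less RNA per cell cannot be told apart. Values are FPKM, which scales sequenced fragments to transcript length and to the size of the library, so that levels of different genes are compared per length. Differences are on the scale of log2(FPKM + 1), and adjusted p-values come from limma with Benjamini-Hochberg adjustment over all genes tested.

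The tissue label was met by its markers, since Col1a1 averaged 195 FPKM and Bglap, which codes for osteocalcin, 417 FPKM over the 12 mice. Markers of red blood cells were far more abundant, with a summed level from 186418 FPKM in mouse 5 to 187396 FPKM in mouse 3. Quantile normalization, which gives every mouse the same set of values, limits how far a sum of the highest values can differ. The mean log2 deviation of these markers from the average over all mice ran from -0.24 in mouse 15 to 0.22 in mouse 3. The osteoblast and osteocyte markers summed to between 529 FPKM in mouse 14 and 2373 FPKM in mouse 9. Aged AL mouse 14 lay farthest from its group mean, with a root mean square distance of 0.435 on the log2 scale over all genes tested, and aged CR mouse 5 followed with 0.378, while the other mice lay between 0.243 and 0.362. Over the lysosomal genes alone mouse 14 again stood apart, with 0.288, against 0.097 to 0.178 in the other mice. The markers of other cells were also at their extremes in mouse 14: as mean log2 deviation from the average over all mice, those of skeletal muscle stood at 1.54, those of osteoblasts and osteocytes at -1.16 and those of B cells at -1.12. Muscle transcripts were found in every bone, with a summed level of the 10 markers from 164 FPKM in mouse 3 to 1194 FPKM in mouse 14. Marker genes of fat cells were higher under CR, with a median log2 fold change of 1.07 for diet over both ages. Of these, 4 of 9 were called by limma, beside 0.258% of all genes tested. With age, 10 of 10 muscle markers lay above 0 (median 0.78), and 0 of 12 osteoblast and osteocyte markers (median -0.35) and 0 of 12 neutrophil markers (median -0.25) did. Of all genes tested, 44.4% lay above 0 with age. For 10 of 10 B cell markers all young CR mice lay below all young AL mice, beside 9.38% of all genes tested, with a median log2 fold change of -0.72. In aged mice this held for 0 of 10, 3 lay above 0 and the median was -0.15. The part of these cells in the results below was not tested.

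The most abundant member was Psap, which codes for the precursor of the saposins that help lipid hydrolases reach their substrates, with a mean of 508 FPKM over the 12 mice. Ctsd, for the aspartic protease cathepsin D, followed with 465 FPKM, then Ctsb with 222 FPKM and Ctss with 193 FPKM, both for cysteine cathepsins. Among membrane members Lamp1 led with 176 FPKM and Cd63, for a tetraspanin of late endosomes, came next with 166 FPKM, and among pump members Atp6v0c, for the proton-carrying ring of V0, led with 95.8 FPKM. At the low end stood Npc1, for the membrane exporter of cholesterol, with 5.09 FPKM, and Naglu, for an enzyme of heparan sulfate breakdown, with 7.26 FPKM. The ratio of the highest to the lowest mouse ran from 1.16 for Atp6v1h, the regulatory subunit of V1, to 1.99 for Cd63. The coefficient of variation over the 12 mice was smallest for Atp6v1h, 4.58%, and largest for Ctss, 22.5%. Mouse 14 alone set several of these extremes, with 309 FPKM of Ctss where the other 11 mice lay between 156 and 241, and with 100.2 FPKM of Cd63 where they lay between 157 and 199.

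**Figure D1:**
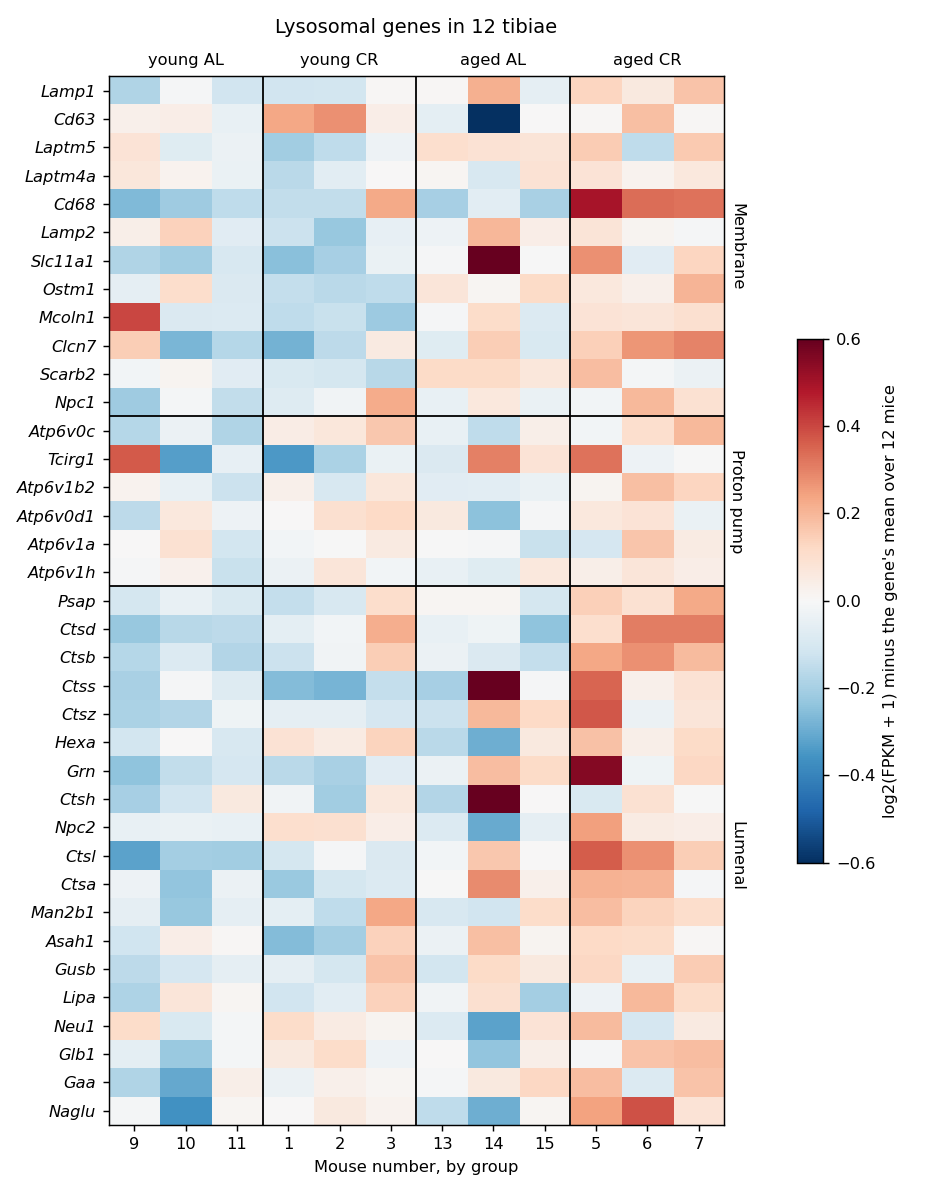
Heat map of the 37 lysosomal genes (rows, by class and then by falling mean FPKM) in the 12 mice (columns, by group), where colour gives log2(FPKM + 1) minus the mean of the gene over the 12 mice and values beyond the ends of the scale take the end colour. The 3 aged CR columns are mostly red, 21 of 37 genes peak in them, and aged AL mouse 14 holds the extremes of Cd63, Slc11a1, Ctss and Ctsh.

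Stretches of the promoters that hold the E-box are shown because this motif is what many of the genes share outside the rule that chose them. RefSeq windows on GRCm38.p6, from 250 bases before to 50 bases after an annotated transcript start, were matched for 31 of the 37 members and not for Npc1, Atp6v1b2, Atp6v1h, Ctsb, Ctsh and Asah1. CACGTG, which reads the same on both strands, lay in a window of 11 of the 31 members, or 35.5%, against 8.09% of all 27025 genes with a window and 11.7% of the 9146 tested genes with one. Each line gives sequence 5′ to 3′ on the strand of the gene, with CACGTG in capitals.
Lamp1, chr8:13159088-13159163, plus strand: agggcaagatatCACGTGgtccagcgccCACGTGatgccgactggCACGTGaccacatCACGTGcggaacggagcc
Mcoln1, chr8:3500436-3500491, plus strand: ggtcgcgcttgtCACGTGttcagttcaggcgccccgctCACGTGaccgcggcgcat
Clcn7, chr17:25133364-25133415, plus strand: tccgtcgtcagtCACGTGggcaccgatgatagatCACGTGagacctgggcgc
Atp6v0d1, chr8:105566050-105566079, minus strand: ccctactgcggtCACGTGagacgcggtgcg
Ctsa, chr2:164833749-164833795, plus strand: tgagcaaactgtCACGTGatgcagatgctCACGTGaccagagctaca
Ctsd, chr7:142387908-142387937, minus strand: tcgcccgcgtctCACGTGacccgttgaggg
Ctsl, chr13:64370739-64370768, minus strand: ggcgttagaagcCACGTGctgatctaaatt
Glb1, chr9:114401018-114401047, plus strand: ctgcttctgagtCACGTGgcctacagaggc
Naglu, chr11:101070009-101070038, plus strand: caaccttcaggtCACGTGgcccgaggtcgg

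Lamp1 held 4 copies, Mcoln1, Clcn7, Ctsa and Ctsd held 2 each, and Atp6v0d1, Atp6v1a, Ctsl, Gaa, Glb1 and Naglu held 1. With the last base before the start counted as -1, the first base of the motif lay at -61, -45, -28 and -15 in Lamp1, at -3 in Atp6v0d1, at -48 in Glb1, at -73 in Naglu, at -98 in the copy of Ctsd shown, and at -236 in Ctsl. The RefSeq start lies downstream of the gene start in the GENCODE annotation by 62 bases for Mcoln1, 82 for Naglu and 211 for Ctsd. For Ctsl it is 370 bases, for Atp6v1a 446, and for the Ctsa window with the motif 900. The copies in Ctsl, Atp6v1a, Ctsa and Naglu and the copy of Ctsd shown thus fall inside the annotated genes. So do the copy of Mcoln1 at -45 and the copy of Clcn7 at 8. The longer TCACGTGA, which contains CACGTG and also reads alike on both strands, was found in 6 of 31 members (19.4%), against 1.12% of all genes with a window and 2.24% of the tested ones. Among 70 other lysosome genes with a window, 18 (25.7%) held CACGTG. The median log2 fold change under CR was 0.11 over the 11 members with CACGTG and 0.03 over the 20 members without it in young mice, 0.10 and 0.10 in aged mice, and 0.11 and 0.08 over both ages. For age these medians were 0.14 and 0.12. The members with and without the motif overlapped in each case, and the difference was not tested.

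To see what CR did in each age group, CR mice were compared with AL mice of the same age, and the mean of both differences gave the diet effect. No member was called at an adjusted p under 0.05 in young mice, where 0.0662% of all genes tested were called, nor in aged mice, where 0% were called, nor for diet over both ages, where 0.258% were called. At an unadjusted limma p under 0.05, 3 members were higher and 0 lower under CR in young mice, with 5.79% of all genes higher and 5.24% lower. In aged mice 9 members were higher and 0 lower, with 4.50% of all genes higher and 3.22% lower, and over both ages 10 were higher and 0 lower, with 7.42% of all genes higher and 6.45% lower. By an unequal-variance test on FPKM, 0 members passed after adjustment in either age group, and 4 in young and 5 in aged mice had an unadjusted p under 0.05.

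Log2 fold changes lay above 0 for 25 of 37 members in young mice, 30 in aged mice and 25 over both ages, where 52.2%, 48.6% and 50.8% of all genes tested did. The median over the members was 0.05 in young mice, 0.10 in aged mice and 0.08 over both ages, beside 0.01, -0.00 and 0.00 over all genes tested. Without young CR mouse 3 the median in young mice was 0.01. By class, the medians of the membrane, pump and lumenal members were -0.06, 0.05 and 0.10 in young mice and 0.06, 0.09 and 0.15 in aged mice. The differences between classes were not tested. Every mouse of the CR group lay above every AL mouse for 6 members in young mice (10.1% of all genes tested) and 8 members in aged mice (5.70%), and every CR mouse lay below for 3 members in young mice (9.38%) and 0 in aged mice (5.33%).

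**Figure D2:**
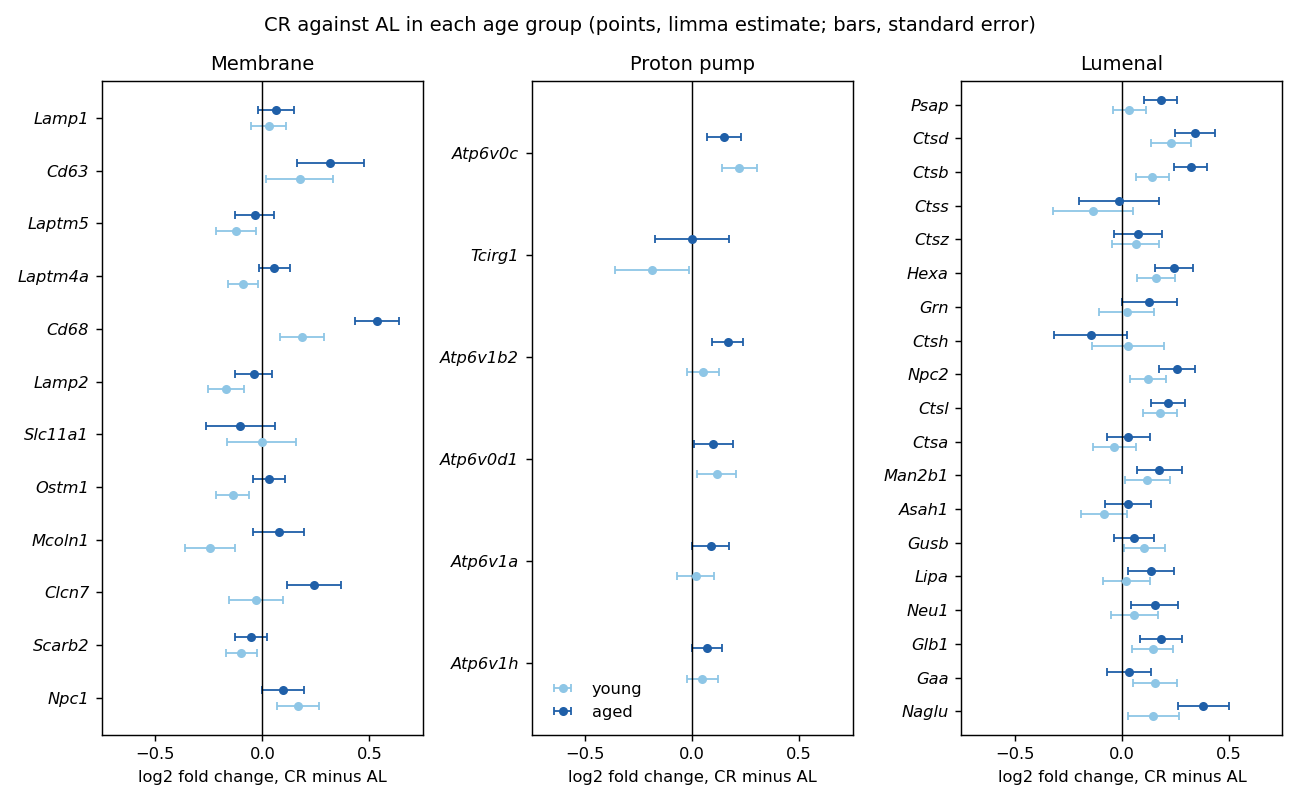
Log2 fold change of CR against AL (horizontal axis, log2(FPKM + 1) scale) for each lysosomal gene in young mice (light blue) and aged mice (dark blue), with limma estimates as points and standard errors as bars, in 3 panels by class. Lumenal genes lie mostly right of 0 in both age groups, with 16 of 19 above 0 in young and 17 of 19 in aged mice, while 4 of 12 membrane genes lie above 0 in young mice.

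Among the proteases, cathepsin D and cathepsin B had the smallest p for diet. Ctsd (chr7:142375911-142388038, minus strand) read 394, 411 and 413 FPKM in young AL mice and 443, 456 and 537 FPKM in young CR mice. It read 447, 453 and 390.3 FPKM in aged AL mice and 495, 571 and 571 FPKM in aged CR mice. The CR mice lay above the AL mice of their age throughout, and mouse 3 was the highest of the young. The log2 fold change was 0.23 ± 0.09 (SE, n = 3 per group) in young mice with a limma adjusted p of 0.407, 0.34 ± 0.09 in aged mice with an adjusted p of 0.406, and 0.29 ± 0.07 over both ages with an adjusted p of 0.0889. Without aged CR mouse 5 the limma adjusted p of Ctsd for diet was 0.0439, and leaving out any other single mouse did not bring it under 0.05. Without mouse 5, 222 of all genes tested were called for diet, against 35 with all mice.

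Ctsb (chr14:63122462-63145923, plus strand) held 196, 208 and 196 FPKM in young AL mice and 202, 217 and 244 FPKM in young CR mice. In aged mice it held 216, 208 and 199.7 FPKM under AL and 259.5, 267 and 252 FPKM under CR. The young groups overlapped and the aged groups did not, and the 3 aged CR mice were the highest of all 12. The log2 fold change was 0.14 ± 0.08 in young mice, 0.32 ± 0.08 in aged mice (limma adjusted p = 0.37) and 0.23 ± 0.05 over both ages (limma adjusted p = 0.0904). Ctsl gave 0.18 ± 0.08 in young mice and 0.21 ± 0.08 in aged mice. For the other 4 members grouped with the cathepsins the log2 fold change over both ages was -0.07 ± 0.13 for Ctss (0.06 without mouse 14), -0.06 ± 0.12 for Ctsh, -0.00 ± 0.07 for Ctsa, the serine carboxypeptidase that protects other lysosomal enzymes, and 0.07 ± 0.08 for Ctsz. Differences between the cathepsins were not tested.

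The 7 glycosidases, which trim sugars from glycans and glycolipids, all had log2 fold changes above 0 in young mice, in aged mice and over both ages, with medians of 0.14, 0.17 and 0.15. Naglu (chr11:101070012-101077672, plus strand) read 7.12, 5.37 and 7.26 FPKM in young AL mice, 7.19, 7.52 and 7.31 in young CR mice, 6.36, 5.69 and 7.25 in aged AL mice, and 8.66, 9.68 and 7.67 in aged CR mice. The aged groups did not overlap and the young groups did. Its log2 fold change was 0.15 ± 0.12 in young mice, 0.38 ± 0.12 in aged mice (limma adjusted p = 0.491) and 0.26 ± 0.08 over both ages (limma adjusted p = 0.198). Hexa, for the alpha chain of the hexosaminidase that degrades gangliosides, averaged 98.0 ± 4.16 FPKM (SD, n = 3) in young AL and 109 ± 3.1 FPKM in young CR mice, and 94.1 ± 11.9 FPKM in aged AL and 111 ± 5.49 FPKM in aged CR mice. Glb1, for acid beta-galactosidase, gave 0.16 ± 0.07 over both ages, and the rest (Gaa, Gusb, Man2b1 and Neu1) gave 0.08 to 0.15.

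Among the lipid hydrolases and soluble partners, Npc2, for the lumenal protein that hands cholesterol to NPC1, read 70.3, 70.5 and 70.3 FPKM in young AL mice and 77.9, 77.5 and 74.6 FPKM in young CR mice. It read 68.4, 58.6 and 69.9 FPKM in aged AL mice and 86.2, 75.0 and 74.6 FPKM in aged CR mice. Within each age all CR mice lay above all AL mice, a pattern shown by 3 members, Cd68, Ctsd and Npc2, and by 1.53% of all genes tested, and the opposite pattern was shown by 0 members and 1.05% of all genes. The log2 fold change of Npc2 over both ages was 0.19 ± 0.06 (limma adjusted p = 0.185). Psap read 471, 492 and 476 FPKM in young AL mice, 458, 473 and 545 in young CR mice, 511, 511 and 471 in aged AL mice, and 559, 540.4 and 592 in aged CR mice, where the groups overlapped in young mice and not in aged mice. Grn, for progranulin, gave a diet difference of 0.08 ± 0.09, Lipa, for lysosomal acid lipase, 0.08 ± 0.08, and Asah1, for acid ceramidase, -0.03 ± 0.08.

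Of the membrane members, Cd68, for a heavily glycosylated protein typical of macrophages and osteoclasts, differed most with diet. Cd68 (chr11:69664213-69666153, minus strand) read 58.7, 61.0 and 63.5 FPKM in young AL mice and 63.8, 63.7 and 82.9 FPKM in young CR mice. It read 61.4, 67.7 and 61.8 FPKM in aged AL mice and 100.01, 89.6 and 88.8 FPKM in aged CR mice. Among young CR mice only mouse 3 lay well above the AL mice, whereas all 3 aged CR mice exceeded the other 9 mice. The log2 fold change was 0.19 ± 0.10 in young mice (limma adjusted p = 0.535), 0.54 ± 0.10 in aged mice (limma adjusted p = 0.233) and 0.36 ± 0.07 over both ages (limma adjusted p = 0.0655). Without aged AL mouse 14 the limma adjusted p of Cd68 for diet was 0.0482, and leaving out any other single mouse did not bring it under 0.05. Without mouse 14, 146 of all genes tested were called for diet, against 35 with all mice.

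Lamp1 and Lamp2, which code for the most abundant glycoproteins of the membrane, went without such a difference. Lamp1 read 155, 174 and 162 FPKM in young AL mice, 162, 162 and 176 in young CR mice, 176, 203 and 168 in aged AL mice, and 192, 182 and 197 in aged CR mice. Lamp2 read 56.7, 61.0 and 52.7 FPKM in young AL mice, 50.6, 47.1 and 53.4 in young CR mice, 54.1, 63.7 and 56.9 in aged AL mice, and 58.5, 55.9 and 55.0 in aged CR mice. CR and AL mice of the same age overlapped for both genes, and the diet difference was 0.05 ± 0.06 for Lamp1 and -0.11 ± 0.06 for Lamp2. Cd63 read 168, 169 and 159 FPKM in young AL mice, 193, 199 and 169 in young CR mice, 157, 100.2 and 164 in aged AL mice, and 165, 186 and 165 in aged CR mice. The aged groups did not overlap, mouse 14 lay far below the rest, and the aged difference was 0.32 ± 0.16, or 0.09 ± 0.09 without mouse 14.

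The ion transport members of the membrane had log2 fold changes below 0 in young mice, 4 of 4, and above 0 for 3 of 4 in aged mice, and none was called. Mcoln1, for the calcium channel TRPML1, read 23.8, 16.7 and 16.7 FPKM in young AL mice, 15.9, 16.1 and 15.1 in young CR mice, 17.7, 19.3 and 16.7 in aged AL mice, and 18.9, 18.7 and 19.1 in aged CR mice. Ostm1, for the partner subunit of ClC-7, read 20.1, 22.6 and 19.7 FPKM in young AL mice, 18.9, 18.6 and 18.7 in young CR mice, 22.1, 21.1 and 22.7 in aged AL mice, and 21.9, 21.4 and 24.2 in aged CR mice. For both genes the young CR mice all lay below the young AL mice, by -0.24 ± 0.12 for Mcoln1 and -0.14 ± 0.08 for Ostm1 (limma adjusted p = 0.482 and 0.53). The highest young AL value of Mcoln1 was that of mouse 9, and without this mouse the difference was -0.08 ± 0.08. Clcn7 itself gave -0.03 ± 0.12 in young and 0.24 ± 0.12 in aged mice. Npc1 read 4.23, 5.02 and 4.48 FPKM in young AL mice, 4.75, 4.98 and 6.08 in young CR mice, 4.89, 5.34 and 4.90 in aged AL mice, and 5.01, 5.94 and 5.47 in aged CR mice. Its groups overlapped at both ages, and the diet difference was 0.13 ± 0.07.

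Of the 6 proton pump members, Atp6v0c had the smallest p for diet. Atp6v0c (chr17:24163866-24169702, minus strand) read 84.6, 93.0 and 84.1 FPKM in young AL mice and 98.5, 100.01 and 107 FPKM in young CR mice, which did not overlap. It read 92.6, 85.7 and 97.7 FPKM in aged AL mice and 94.4, 102 and 109.5 FPKM in aged CR mice, which did. The log2 fold change was 0.22 ± 0.08 in young mice (limma adjusted p = 0.366), 0.15 ± 0.08 in aged mice and 0.18 ± 0.06 over both ages (limma adjusted p = 0.184).

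Atp6v1b2, for a nucleotide-binding subunit of V1, read 66.0, 63.0 and 59.3 FPKM in young AL mice, 66.3, 60.7 and 68.1 in young CR mice, 61.9, 62.3 and 63.2 in aged AL mice, and 65.8, 73.8 and 71.1 in aged CR mice. The groups did not overlap in aged mice, with a difference of 0.17 ± 0.07 (limma adjusted p = 0.638). Tcirg1, for the a3 subunit of V0 that osteoclasts need for acid secretion, was the most variable of the 6: it read 88.4, 54.2 and 66.0 FPKM in young AL mice, 53.7, 59.7 and 66.4 in young CR mice, 64.2, 84.5 and 72.4 in aged AL mice, and 85.8, 66.9 and 68.1 in aged CR mice. Its groups overlapped at both ages, and the diet difference was -0.09 ± 0.12. Here too mouse 9 was the highest of the young AL mice, and without it the differences were -0.00 ± 0.15 in young mice and -0.00 ± 0.10 over both ages.

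Atp6v0d1, for the d subunit of V0 found in most cells, read 44.9, 52.7 and 49.1 FPKM in young AL mice, 50.4, 53.7 and 54.7 in young CR mice, 52.4, 42.3 and 50.1 in aged AL mice, and 52.6, 53.3 and 48.9 in aged CR mice. Atp6v1h read 20.2, 20.6 and 18.4 FPKM in young AL mice, 19.8, 21.4 and 20.1 in young CR mice, 19.6, 19.2 and 21.2 in aged AL mice, and 20.8, 21.3 and 20.9 in aged CR mice. The groups overlapped at both ages for both genes, with diet differences of 0.11 ± 0.07 and 0.06 ± 0.05. Atp6v1a ranged from 19.4 to 24.1 FPKM, with a diet difference of 0.05.

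**Figure D3:**
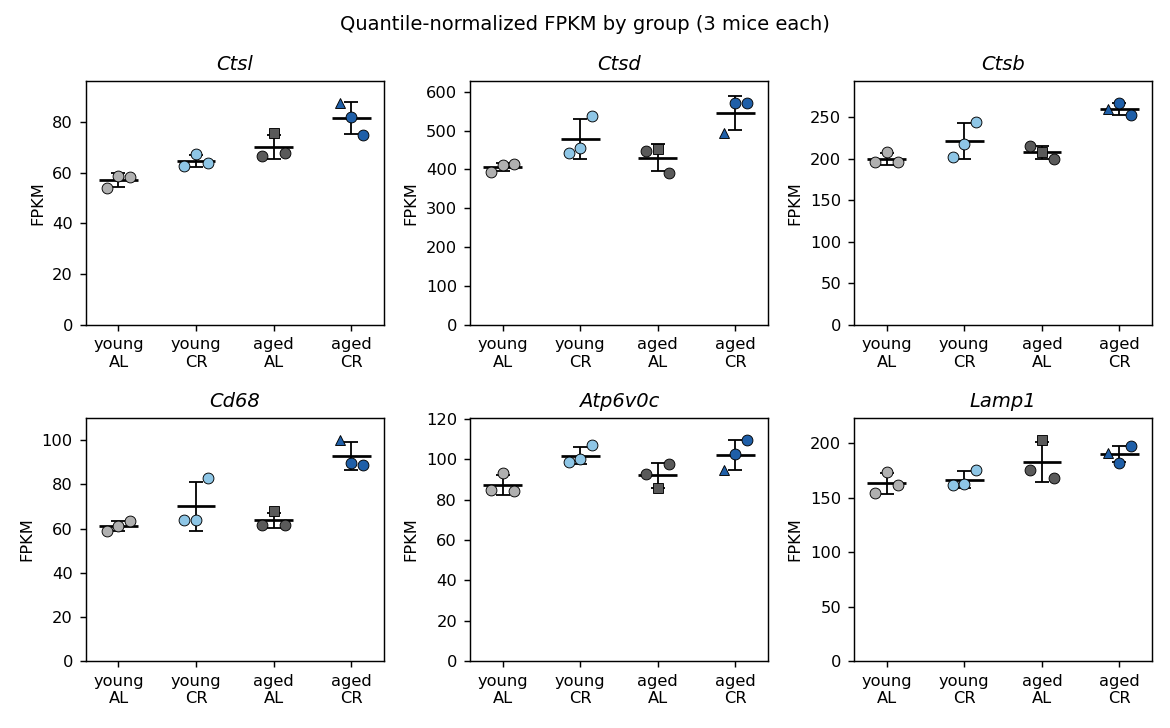
FPKM (vertical axis, from 0) of 3 cathepsin genes, Cd68, Atp6v0c and Lamp1 in each mouse by group, with the group mean as a horizontal line and the SD as bars (3 mice each). Squares mark aged AL mouse 14 and triangles aged CR mouse 5, and for Cd68 and Ctsb the 3 aged CR mice lie above the other 9.

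With age, compared over both diets, 1 member was called, Ctsl, where 0.758% of all genes tested were called and 0.449% were higher. Ctsl (chr13:64359337-64370890, minus strand) read 53.8, 58.6 and 58.4 FPKM in young AL mice and 62.7, 67.2 and 63.6 FPKM in young CR mice. It read 66.7, 75.7 and 67.8 FPKM in aged AL mice and 87.3, 82.0 and 74.9 FPKM in aged CR mice. The group means were 56.9 ± 2.71, 64.5 ± 2.36, 70.1 ± 4.92 and 81.4 ± 6.22 FPKM (SD, n = 3), and within each diet all aged mice lay above all young mice. The log2 fold change was 0.31 ± 0.06 (limma adjusted p = 0.0395). The call was close to the threshold. It remained without young CR mouse 3, aged AL mouse 14 or aged CR mouse 6, and it was lost without any of the other 9 mice, with adjusted p-values up to 0.119 and log2 fold changes of 0.29 to 0.34.

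A further look at age showed 13 members with an unadjusted limma p under 0.05, all higher in aged mice, where 6.80% of all genes tested were higher and 9.76% lower by this measure. They were 6 membrane genes (Lamp1, Cd68, Scarb2, Slc11a1, Clcn7 and Ostm1) and 7 lumenal genes (Ctsa, Ctsb, Ctsl, Ctss, Ctsz, Grn and Psap), and 0 of 6 pump genes. Log2 fold changes were above 0 for 31 of 37 members, beside 44.4% of all genes tested, and their median was 0.13 beside -0.02 over all genes. The median was 0.14 over the membrane members, 0.13 over the lumenal members and 0.03 over the pump members, and the 7 cathepsins ranged from 0.14 to 0.32. Within each diet every aged mouse lay above every young mouse for 4 members, Scarb2, Ctsa, Ctsl and Grn, against 1.18% of all genes tested, and the opposite held for 0 members and 1.70% of all genes.

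Grn read 82.9, 88.6 and 91.6 FPKM in young AL mice, 87.8, 85.7 and 93.8 in young CR mice, 95.7, 112 and 106 in aged AL mice, and 144, 96.4 and 107 in aged CR mice. The aged mice were all higher, mouse 5 most of all, and the log2 fold change was 0.30 ± 0.09 (limma adjusted p = 0.147). Ctsa gave 0.24 ± 0.07 (limma adjusted p = 0.149), Lamp1 0.17 ± 0.06, Ostm1 0.16 ± 0.05 and Scarb2, for the receptor that carries beta-glucocerebrosidase to lysosomes, 0.14 ± 0.05. The age differences of Slc11a1, for a metal ion transporter of phagocytes, 0.32 ± 0.11, and of Ctss, 0.32 ± 0.13, came with the outlying values of mouse 14, 39.3 and 309 FPKM, and were 0.21 ± 0.07 and 0.19 ± 0.07 without it. Cd63 went the other way, -0.19 ± 0.11, and there mouse 14 was the lowest. Npc2 and Hexa gave -0.04 ± 0.06 and -0.02 ± 0.06, and both were above 0 without mouse 14, at 0.00344 and 0.0179.

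**Figure D4:**
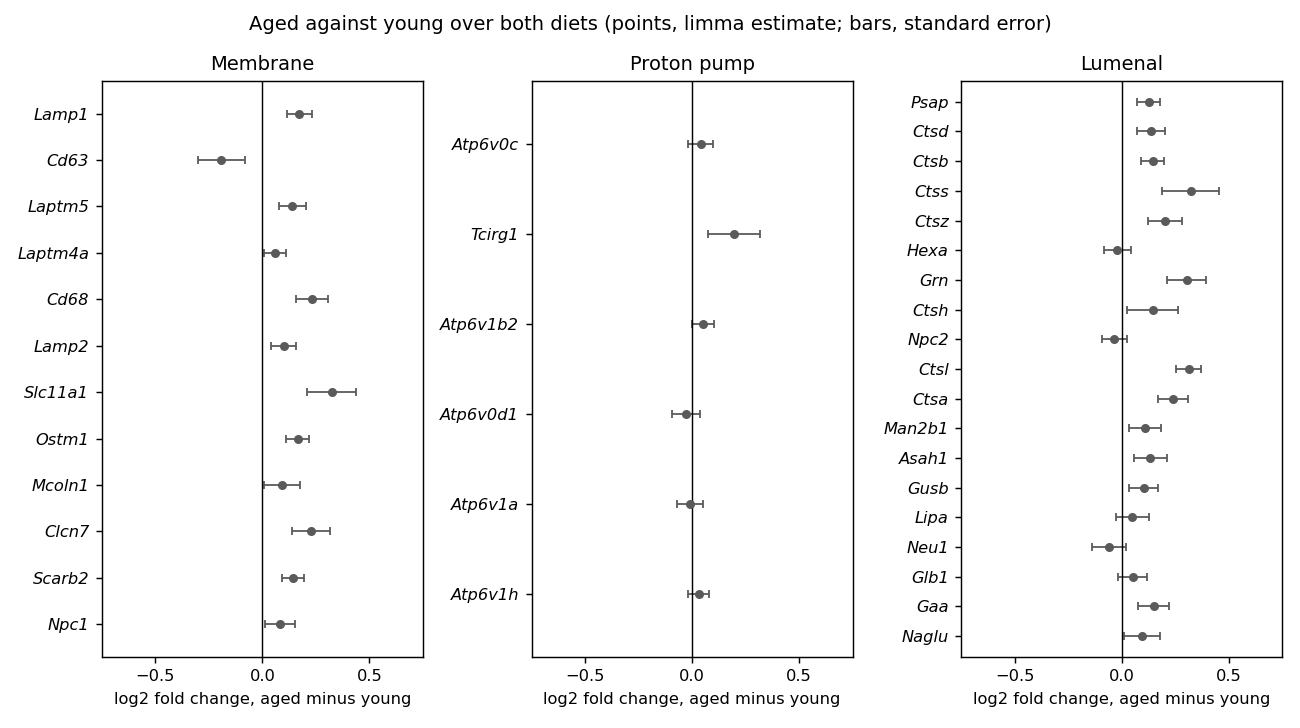
Log2 fold change of aged against young mice over both diets (horizontal axis, log2(FPKM + 1) scale) for each lysosomal gene, with limma estimates as points and standard errors as bars, in 3 panels by class. Of 12 membrane genes 11 lie right of 0, of 19 lumenal genes 16 do, and the 6 pump genes have a median of 0.03.

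Whether the diet effect differed between ages was tested as an interaction. No member was called, where 0% of all genes tested were called, and at an unadjusted limma p under 0.05 there was 1 member, Cd68, with 2.37% of all genes higher in this sense and 1.86% lower. The CR effect on Cd68 was larger in aged than in young mice by 0.35 ± 0.15 (unadjusted limma p = 0.0353, adjusted p = 0.999). For 30 of 37 members the difference lay above 0, against 47.7% of all genes tested, and the median was 0.10 beside -0.01 over all genes. Without aged CR mouse 5 the median was 0.049. For Mcoln1 the difference was 0.32 ± 0.17, or 0.16 ± 0.11 without young AL mouse 9, and for Ctsd 0.11 ± 0.13.

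The wider pathway was described from 90 other lysosome genes, of which 88 were tested and 0 called in any of the 5 comparisons. Other settings gave calls among them for diet, along with more calls over all genes. Without aged CR mouse 5 there were 3 (Ctsk, Ctso and Acp5), beside 222 of all genes tested. Without mice 14 and 5 there were 4 (these and Atp6v0d2), beside 441. With mice weighted by quality there were 5 (Ctsk, Ctso, Dpp7, Lgmn and Acp5), beside 923 of all 13590 genes. Ctso was lower under CR and the rest were higher. The weights also gave 1 call in young mice (Laptm4b), 5 in aged mice and 8 for age, beside 304, 193 and 1798 of all 13590 genes. Of the 8 for age, 5 were higher and 3 lower (Dnase2a, Lamtor4 and Lamtor5). At an unadjusted limma p under 0.05, 1 of the 88 was higher and 4 lower under CR in young mice, beside 5.79% and 5.24% of all genes tested. In aged mice there were 8 and 2 (4.50% and 3.22% of all genes), over both ages 11 and 3 (7.42% and 6.45%), and with age 7 and 3 (6.80% and 9.76%). Their median log2 fold change was 0.00 in young mice, 0.05 in aged mice, 0.02 over both ages and 0.01 for age.

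Among 36 other hydrolases, Lgmn, for the asparaginyl protease legumain, read 46.8, 55.8 and 57.6 FPKM in young AL mice, 58.5, 61.5 and 59.1 in young CR mice, 59.7, 61.9 and 54.3 in aged AL mice, and 96.7, 69.5 and 75.5 in aged CR mice. The aged CR mice were the highest, mouse 5 above all, and the diet difference was 0.30 ± 0.09 (limma adjusted p = 0.152). Ctso, for cathepsin O, was the opposite: 7.99, 8.75 and 8.07 FPKM in young AL, 6.83, 6.63 and 6.64 in young CR, 7.99, 7.41 and 8.27 in aged AL and 7.65, 6.47 and 6.41 in aged CR mice, a diet difference of -0.22 ± 0.06 (limma adjusted p = 0.112). For Ctso the limma adjusted p was 0.0432 without aged CR mouse 5, and leaving out any other single mouse did not bring it under 0.05. Dnase2a, for the acid DNase, gave -0.22 ± 0.07 with age (limma adjusted p = 0.154).

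Of 13 further pump subunits tested, Atp6v0d2, the d subunit of osteoclasts and some macrophages, ranged from 6.83 FPKM in mouse 14 to 28.4 FPKM in mouse 6. It had a diet difference of 0.56 ± 0.23, while Atp6v1c1 and Atp6v1g1 gave 0.11 ± 0.05 and 0.13 ± 0.06. With age Atp6v0a2 gave 0.18 ± 0.06 and Atp6v1g1 -0.15 ± 0.06. Of 22 other membrane proteins, Hgsnat, for the acetyltransferase of heparan sulfate breakdown, gave 0.25 ± 0.09 for diet, Laptm4b 0.23 ± 0.09, Tpcn2, for an endolysosomal cation channel, 0.12 ± 0.08, and Lamtor4, for a subunit of the Ragulator complex, -0.26 ± 0.11 with age. The 9 genes of mannose 6-phosphate tagging and sorting, which send new hydrolases to the lysosome, had 0 genes at an unadjusted limma p under 0.05 in any comparison. By this measure 5.79% of all genes tested were higher and 5.24% lower under CR in young mice, and 4.50% and 3.22% in aged mice. For diet these shares were 7.42% and 6.45%, for age 6.80% and 9.76%, and for the interaction 2.37% and 1.86%. In a list of 9 genes such shares come to few genes or none. M6pr gave -0.11 ± 0.07, Gga2 0.11 ± 0.07 and Gga3 -0.13 ± 0.07 for diet.

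The 8 genes of the TFEB family and its partners likewise had 0 genes at an unadjusted limma p under 0.05 in any comparison. The shares over all genes tested, from 1.86% to 9.76% per direction, again come to few genes or none in a list of 8. Tfeb read 10.95, 10.8 and 12.6 FPKM in young AL mice, 10.8, 10.5 and 9.64 in young CR mice, 10.3, 8.97 and 12.1 in aged AL mice, and 10.5, 8.42 and 9.04 in aged CR mice. The young groups did not overlap, with CR lower by a narrow margin, the aged groups did, and the diet difference was -0.14 ± 0.08 (limma adjusted p = 0.45). Tfe3 gave 0.01 ± 0.08, Mitf -0.03 ± 0.07 at 0.892 to 1.4 FPKM, Tfec 0.19 ± 0.10 and Flcn, for folliculin, which holds these factors out of the nucleus, 0.02 ± 0.06. By the unequal-variance test on FPKM, Flcn had an unadjusted p under 0.05 for CR in aged mice, as had 487 of all 13590 genes tested. With mice weighted by quality, Flcn was called for age, at 0.15 (limma adjusted p = 0.0455), as were 1798 of all 13590 genes. These are transcript levels, and the location of the proteins was not measured.

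Markers of cells rich in lysosomes are given beside the members, and their part in the results was not tested. The osteoclast list shares Acp5, Ctsk and Atp6v0d2 with the lists of other lysosome genes above and no gene with the 37 members. For the 13 macrophage markers the median log2 fold change under CR was 0.14 in young and 0.38 in aged mice, and with age it was 0.25. With age these markers were mixed, ranging from -0.95 to 0.60, and 9 of 13 lay above 0, where 44.4% of all genes tested did. In aged mice 13 of 13 lay above 0 under CR, where 48.6% of all genes tested did, 6 of them at an unadjusted limma p under 0.05, where 4.50% of all genes were, and 0 were called. Their summed level was 552 to 759 FPKM in young AL mice, 694 to 783 in young CR mice, 665 to 1117 in aged AL mice and 929 to 1132 in aged CR mice. Defining macrophage markers were well above 0, with means of 18.7 FPKM for Adgre1, 28.0 for Csf1r and 156 for C1qa.

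For the 8 osteoclast markers tested the medians were 0.29 in young mice, 0.47 in aged mice and -0.05 for age, with 0 called, and 5 of 8 were higher at an unadjusted limma p under 0.05 for diet over both ages, where 7.42% of all genes tested were. Their list has 10 genes, of which Calcr and Ocstamp averaged 0.415 and 0.656 FPKM and were not tested. The summed osteoclast level was 575 to 737 FPKM in young AL, 741 to 884 in young CR, 551 to 684 in aged AL and 621 to 1049 in aged CR mice, and Acp5 and Ctsk averaged 289.9 and 186 FPKM. Monocyte markers went the other way, with medians of -0.21 in young and -0.39 in aged mice under CR.

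Mouse by mouse, the mean log2 deviation of the lumenal members from their averages over all mice was -0.13, -0.13 and -0.05 in young AL mice, -0.07, -0.06 and 0.05 in young CR mice, -0.07, 0.05 and 0.00 in aged AL mice, and 0.19, 0.11 and 0.11 in aged CR mice. That of the macrophage markers was -0.35, -0.13 and -0.03, then -0.13, 0.04 and 0.14, then -0.17, -0.09 and -0.18, and 0.37, 0.27 and 0.25 in the same order. In both lists the 3 aged CR mice were the highest and mouse 3 was the highest of the young CR mice. The osteoclast markers differed from this in mouse 5, at -0.08, beside 0.45 and 0.38 in mice 6 and 7, while the lumenal members were highest in mouse 5.

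**Figure D5:**
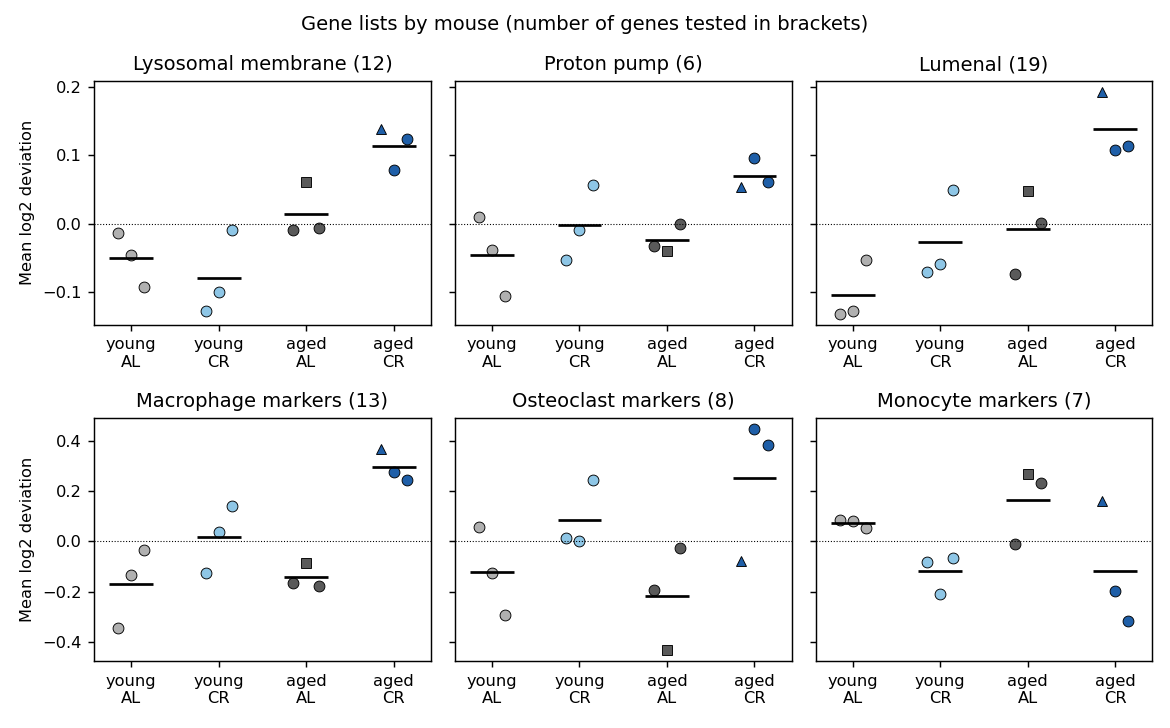
Mean over the genes of a list of log2(FPKM + 1) minus the mean of the gene over 12 mice (vertical axis), for each mouse by group, with the group mean as a line, squares for aged AL mouse 14 and triangles for aged CR mouse 5. Aged CR mice are the highest group for the lumenal members, 0.11 to 0.19, and for the macrophage markers, 0.25 to 0.37, whereas the osteoclast markers are at -0.08 in mouse 5.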

How the data were processed

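RNA of 12 whole tibiae was sequenced by the authors from stranded mRNA libraries, with 4 technical repeats per mouse in the labels. Each mouse has 1 column in the deposited table, and the sources used here do not say how its repeats were merged. Per the submitters' notes the tools were FastQC 0.11.8, MultiQC 1.6, Trim Galore 0.5.0, STAR 2.6.1 on mm10, StringTie 2.1.3b and R 4.1.1. The authors deposited FPKM after quantile normalization, which gives every mouse the same set of values, so that a shift common to most genes cannot be seen. No read counts entered, so depth is unknown, and errors and p-values measure only the spread between these mice.

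The 13590 of 29801 genes whose mean reached 1 FPKM were fitted as log2(FPKM + 1) in limma 3.58.1 (R 4.3.3) with 4 group means and a mean-dependent prior variance. The 5 comparisons, two-sided, were CR against AL in young mice, in aged mice and averaged, aged against young averaged over diets, and the diet-by-age interaction, with Benjamini-Hochberg adjustment over all genes tested. Genes were called at an adjusted p under 0.05. With 3 mice against 3 an exact permutation test cannot go below 0.1. Members, other gene lists and tests were chosen with earlier results of these data known. Values in every mouse are given for called members, for the 2 members of each class with the smallest p in each comparison or the highest and lowest mean, and values for the 2 genes with the smallest p for diet and age in each other list of the lysosome, with Tfeb, Tfe3 and Mitf always. A few further members are given by their differences only. Pip4p1 is listed under its older name and Atp6v1b1 was not analysed here. Positions are from GENCODE M21 (GRCm38), which may not be the annotation used upstream. Promoters are from RefSeq on GRCm38.p6.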

Additional observations from a re-analysis of the deposited data

How the results depend on the processing

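No paired analysis was possible because the labels tie no CR mouse to an AL mouse, by number, litter or cage, and the repeat numbers in the labels name technical repeats that were not analysed as separate columns. Any litters shared between the groups are not marked per mouse. Settings tried were a pseudocount of 0.1, no filter on low FPKM, size-factor scaling on top of the normalization, mice weighted by quality, each mouse left out in turn, aged AL mouse 14 and aged CR mouse 5 left out together, an unequal-variance test on FPKM, a fit of only the 2 groups compared, and unadjusted p-values. In what follows, counts are given for young, aged, diet, age and interaction where they moved.

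Ctsl was called for age in 6 of 17 settings of the fit and lost without the filter (adjusted p = 0.0637) and without both mice (adjusted p = 0.0524). Over these settings its log2 fold change was 0.26 to 0.34 and its adjusted p 0.0072 to 0.119. Without the filter the counts of all genes called were 5 (young), 1 (aged), 9 (diet) and 44 (age), and 0 lysosomal genes were called for age. With a quality weight per mouse these counts were 304, 193, 923 and 1798, with 1 for the interaction, and the lysosomal calls were 2 in aged mice (Cd68 and Ctsd), 6 for diet (Cd68, Atp6v0c, Ctsb, Ctsd, Ctsl and Hexa) and 10 for age, with a median in aged mice of 0.14. Without both mice the counts were 159, 48, 441 and 213, with 1 for the interaction, the lysosomal calls were 2 for diet (Cd68 and Ctsd) and 0 for age, and Hexa turned to 0.000973 for age. With only the 2 groups compared 74 genes were called in young mice. By the unequal-variance test 0 genes passed after adjustment in young mice, and 1175 in young and 487 in aged mice passed without it, 4 and 5 of them lysosomal. Without adjustment limma gave 1499, 1049, 1884, 2250 and 575 genes, of which 3, 9, 10, 13 and 1 were lysosomal. The cause of these shifts was not tested.

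Leaving out 1 mouse gave 0 to 44 genes called in young mice, 0 to 7 in aged mice, 8 to 222 for diet, 21 to 221 for age and 0 to 1 for the interaction. Lysosomal calls ranged from 0 to 2 for age, the highest without young CR mouse 3 (Cd68 and Ctsl), and from 0 to 1 for diet, with Cd68 called without aged AL mouse 14 and Ctsd without aged CR mouse 5. The lysosomal median ran from 0.01 to 0.06 in young mice, 0.08 to 0.12 in aged mice, 0.06 to 0.10 for diet, 0.10 to 0.15 for age and 0.049 to 0.12 for the interaction. The age difference ranged from -0.0693 to 0.00344 for Npc2 and from -0.0700 to 0.0179 for Hexa, both highest without mouse 14. Of the other values recomputed with 1 mouse left out, 813 kept their direction and side of the threshold.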
